A study of Mus musculus with 4 samples.

Results

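Peptide hormones and neuropeptides are the secreted products of endocrine cells and neurons, and 9 of their genes were followed here through single cells of the mouse pituitary gland. The genes are Pyy, Npy, Gal, Vip, Adm, Cck, Oxt and Avp, which encode peptides, and Crhbp, which encodes a protein that binds a peptide. They are 9 of the 31053 genes counted, and all of them had at least 1 molecule in the cells used. The members were chosen by their measured UMIs in these libraries, by genotype and gated class, so their levels are a description and not a test.

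The study sampled pituitary glands at 14 and at 40 weeks of age from p25OE mice, in which p25 is overexpressed, and from littermates without it (WT). The kinase Cdk5 is activated by p35, and p25 is the shorter form that cleavage of p35 leaves. The labels name 2 independent runs without giving the run of each library. All 4 groups carry the strain label C57BL/6- B6;CBA-BiTg, and the labels do not give the promoter of the transgene, the sex of the mice or the number of animals per library. With 1 library per group there is no replicate error to compare with, and no p-value is given. Ranges in parentheses after a value are exact 95% intervals that cover counting error only.

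Peptide genes encode precursors that are cut in secretory granules by convertases such as the product of Pcsk2, trimmed by the product of Cpe and amidated by the product of Pam. Pyy encodes peptide YY, which is best known from endocrine cells of the gut and the pancreatic islet and acts through the Y receptors that it shares with neuropeptide Y. In the intermediate lobe of the pituitary, melanotrophs cut the product of Pomc into melanocyte-stimulating hormone, and Pax7 sets these cells apart from the corticotrophs of the anterior lobe, which use the same precursor.

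Pyy, Gal and Adm carry most of what follows. On GRCm38 the Pyy gene lies on the minus strand at chr11:102106676-102107832, Gal on the minus strand at chr19:3409915-3414544, and Adm on the plus strand at chr7:110627657-110629820. The 250 bases before an annotated start of each are printed 5′ to 3′ on the gene's own strand, from RefSeq sequence of GRCm38.p6 and are shown because the contrasts between cells below turn on these 3 genes. Capitals mark the matches to 7 short motifs that were searched on both strands.
Pyy, chr11:102107833-102108082: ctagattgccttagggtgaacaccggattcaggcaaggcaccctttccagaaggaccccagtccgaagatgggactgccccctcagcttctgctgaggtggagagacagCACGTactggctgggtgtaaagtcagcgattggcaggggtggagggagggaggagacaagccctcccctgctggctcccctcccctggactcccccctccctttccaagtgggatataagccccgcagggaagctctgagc
Gal, chr19:3414545-3414794: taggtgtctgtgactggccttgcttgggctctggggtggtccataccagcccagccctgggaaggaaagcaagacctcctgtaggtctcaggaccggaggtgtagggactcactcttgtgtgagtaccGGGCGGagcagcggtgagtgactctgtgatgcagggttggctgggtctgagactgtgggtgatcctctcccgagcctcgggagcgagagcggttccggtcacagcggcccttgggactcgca
Adm, chr7:110627407-110627656: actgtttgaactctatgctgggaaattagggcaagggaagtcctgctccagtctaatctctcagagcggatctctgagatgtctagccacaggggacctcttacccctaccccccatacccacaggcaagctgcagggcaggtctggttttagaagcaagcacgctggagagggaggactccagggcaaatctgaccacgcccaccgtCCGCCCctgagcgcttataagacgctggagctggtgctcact
In the Pyy sequence the capitals are the hypoxia response core ACGTG on the minus strand, whose first base lies 141 bases before the start. For Gal they are the GC box GGGCGG on the plus strand, 122 bases before the start, and for Adm the same GC box on the minus strand, 42 bases before the start. ACGTG occurs in 16.6% and GGGCGG in 32.7% of 32851 promoter windows of the same length, and either core can overlap a longer motif. The TATA box TATAAA, the cyclic AMP response element TGACGTCA, the homeodomain core TAATTA, the T-box half-site AGGTGTGA and the AP-1 site TGAGTCA were not found in these 3 windows. They occur in 12.4%, 1.55%, 4.84%, 1.12% and 4.46% of the windows. A match is a description of the letters only.

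RNA molecules were counted with unique molecular identifiers (UMIs), and the libraries held between 53714895 and 95242353 UMIs. Of the barcodes, 29899 had at least 500 detected genes and at most 20% mitochondrial UMIs and were kept as cells, between 6579 and 7927 per library with medians of 4940 to 10778 UMIs. Cells were assigned by marker genes. A melanotroph-gated cell has at least 1% of its UMIs from Pomc and at least 8 of every 10000 UMIs from Pcsk2, Pax7 and Oacyl together. Values are given throughout in the order WT of 14 weeks, p25OE of 14 weeks, WT of 40 weeks and p25OE of 40 weeks. In that order, 569, 1661, 673 and 6800 cells passed, and 14, 80, 68 and 250 of them lay within 1.2-fold of a cut. Tbx19, a factor of Pomc cells that the gate does not use, stood at 101, 85.0, 38.2 and 51.8 UMIs per 1000000 UMIs (CPM) in gated cells and at 29.0, 29.2, 13.7 and 26.2 CPM in all others. Cells that passed no gate are called ungated. Fewer cells passed the other gates in p25OE at 40 weeks: 52 lactotroph-gated cells, against 1933 in WT, and 151 macrophage-gated cells, against 719. Of 3 lactotroph markers outside the gate, Pou1f1 stood at 139 CPM in those 52 cells against 3.33 CPM in the rest of that library, Agtr1a at 6.11 against 4.34 CPM on 4 UMIs, and Edil3 at 10.7 against 17.9 CPM on 7 UMIs. The labels' gene, Cdk5r1, which encodes p35, had 164, 431, 61 and 980 UMIs in melanotroph-gated cells, a log2 ratio of p25OE over WT of 0.59 at 14 weeks and -0.08 at 40 weeks. The labels do not give the transgene's sequence, so these UMIs do not check the genotype. The libraries of 1 age shared 32 barcodes at 14 weeks and 135 at 40 weeks, and leaving those out kept each of the 49 results recomputed without them close to its value.

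Pyy was read in both p25OE libraries and in neither WT library. The kept cells held 0, 732, 0 and 3434 Pyy UMIs in 0, 244, 0 and 1762 cells, of which 105 at 14 weeks and 660 at 40 weeks held at least 2. Over all kept cells of p25OE this is 10.4 CPM at 14 weeks and 56.9 CPM at 40 weeks. In WT a count of 0 allows up to 0.0326 CPM at 14 weeks and 0.0602 CPM at 40 weeks, taking 3 counts as the limit. The gene was chosen for this pattern.

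At 40 weeks nearly all of the Pyy lay in melanotroph-gated cells of p25OE. They held 3242 UMIs, 94.4% of the library's Pyy, at 58.0 CPM (56.1 to 60.1), in 1656 of 6800 cells. At 14 weeks the same gate in p25OE held 321 UMIs at 18.5 CPM (16.5 to 20.6), in 123 of 1661 cells, which is 43.9% of the library's Pyy. The 2 levels do not overlap within their counting intervals, and the later one is the higher. This order was not seen in every range of Pomc, whose UMIs are taken out of the following levels. At 1 to 2% Pomc the level was 162 CPM (123 to 209) at 14 weeks and 109.8 CPM (100.7 to 120) at 40 weeks. The earlier of these rests on 58 UMIs in 48 cells, and its interval does not cover the uneven spread of UMIs over cells. At equal depth per cell, 5 of 45 cells in that range held Pyy at 14 weeks (11.1%, 3.71 to 24.1). At 40 weeks 60 of 760 did (7.89%, 6.08 to 10.0), and these intervals overlap. The order of the ages in that range is therefore not settled. For the levels, the intervals overlapped at 2 to 5%, and above 5% the later level was the higher, with 36.2 and 80.5 CPM at 5 to 10%. Against the WT cells of the same gate the level was 61.4-fold higher at 14 weeks and 63.7-fold higher at 40 weeks, with 3 counts in place of the 0 counted in WT. The lower limits of the counting intervals of these ratios were 49.6 and 51.8. These ratios are relative to the median gene of the gated cells.

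Pyy was spread over many cells at 40 weeks and over fewer at 14 weeks. The 10 cells with the most Pyy held 43.0% of the UMIs of the gate at 14 weeks and 5.31% at 40 weeks, and the highest single cells held 22 and 38. A fixed 10 cells is a larger part of the fewer cells at 14 weeks, so these 2 percentages are not a like measure of spread. With every cell thinned to 1000 UMIs, so that depth is equal, 28 of 1643 melanotroph-gated cells still held a Pyy UMI at 14 weeks (1.70%, 1.13 to 2.45) and 402 of 6658 at 40 weeks (6.04%, 5.48 to 6.64). Without thinning the shares were 7.41% and 24.4%. Thinned macrophage-gated cells, which should lack the gene, had 3 of 737 (0.407%) at 14 weeks and 3 of 148 (2.03%) at 40 weeks, with intervals of 0.0840 to 1.18 and 0.420 to 5.81 that reach into those of the melanotroph-gated shares. Median depth before thinning was 3293 and 3378 UMIs in macrophage-gated cells and 8559 and 6932.5 in melanotroph-gated cells. By level the classes did not overlap: macrophage-gated cells stood at 2.57 CPM (1.03 to 5.29) at 14 weeks and 19.1 CPM (9.89 to 33.4) at 40 weeks.

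**Figure D1:**
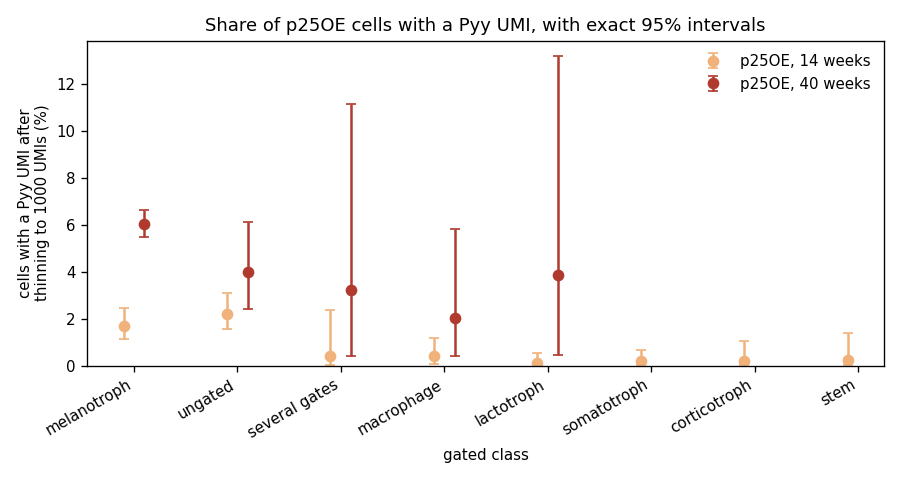
The share of p25OE cells with a Pyy UMI after thinning to 1000 UMIs (vertical axis, percent) is plotted by gated class (horizontal axis) for both ages, with exact 95% binomial intervals as bars. The melanotroph-gated point stands at 6.04% at 40 weeks and at 1.70% at 14 weeks, and classes with few or unnamed cells at 40 weeks have no point.

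Outside the gate, ungated cells held most of the remaining Pyy. In p25OE at 14 weeks, 91 of 1594 ungated cells held 355 UMIs, 40.8 CPM (36.7 to 45.3), more than the melanotroph-gated cells held. At 40 weeks the ungated cells stood at 61.8 CPM (52.1 to 72.8) from 144 UMIs, which overlaps the melanotroph-gated level. Of the ungated cells at 14 weeks, 197 passed the other melanotroph markers and missed the gate by Pomc alone, and they held 256 of the 355 UMIs. The cell with the most Pyy at 14 weeks, with 34 UMIs, was ungated and also held 4035 Prl UMIs of its 20992. In the next cell, with 30 Pyy UMIs, Pcsk2 gave 43 UMIs, Oacyl 20 and Pomc only 15 of 20694. Macrophage-gated cells held 7 and 12 Pyy UMIs at the 2 ages, and the part of free RNA in the small counts of other classes was not tested.

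Cells with less Pomc held Pyy more often. Among p25OE cells with the melanotroph markers at 14 weeks, thinned to 1000 UMIs, 13.7% of the cells with under 1% of their UMIs from Pomc held Pyy, 11.1% of those with 1 to 2% and 11.2% of those with 2 to 5%. The share was 1.72% at 5 to 10% Pomc, 0.488% at 10 to 20% and 0.268% above 20%. At 40 weeks it was 7.89%, 8.21% and 7.63% for the Pomc ranges 1 to 2%, 2 to 5% and 5 to 10%, then 3.90% at 10 to 20% and 1.92% above 20%. Both libraries therefore show the same order, with the step at a lower Pomc level at 14 weeks. With the Pomc UMIs taken out of the total, the Pyy level at 14 weeks was 158 CPM (139 to 178) in the lowest range and 5.48 CPM (3.19 to 8.78) in the highest, and at 40 weeks 109.8 CPM (100.7 to 120) at 1 to 2% Pomc and 22.7 CPM (19.8 to 25.8) above 20%. The dilution of other genes by Pomc itself is thus removed from these values. Gal showed a similar order at 14 weeks, with 9.47% of the thinned cells under 1% Pomc and 2.41% of those above 20%, and not at 40 weeks, with 6.45% at 1 to 2%, 10.5% at 5 to 10% and 6.18% above 20%. Median depth also differed between the ranges at 40 weeks, with 5838 UMIs per cell at 1 to 2% Pomc and 11047 above 20%.

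**Figure D2:**
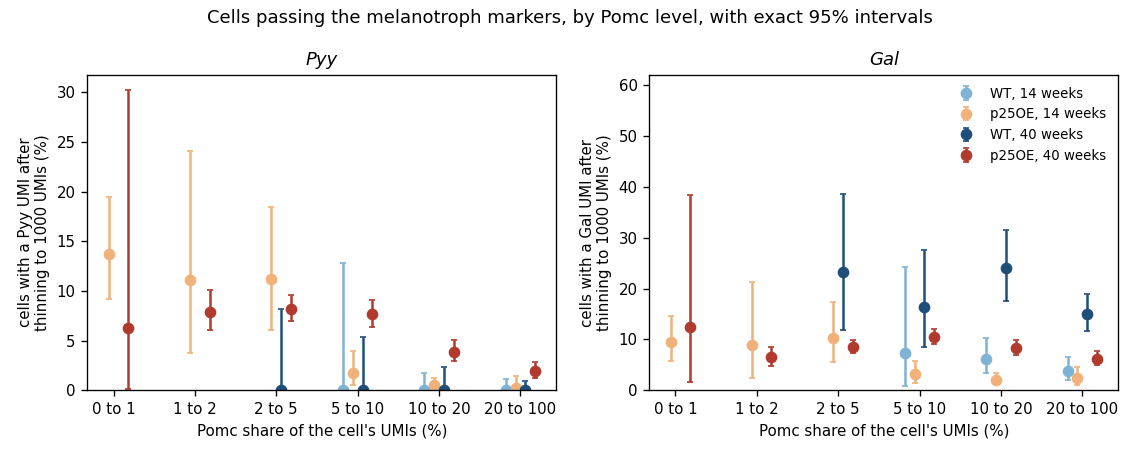
The share of cells with a Pyy UMI (left) or a Gal UMI (right) after thinning to 1000 UMIs (vertical axes, percent) is plotted against the Pomc share of each cell's UMIs (horizontal axes) for cells with the melanotroph markers, with exact 95% binomial intervals. For Pyy the p25OE points go from 13.7% to 0.268% at 14 weeks and from 7.89% (1 to 2% Pomc) to 1.92% at 40 weeks, while the WT points lie at 0; for Gal they go from 9.47% to 2.41% at 14 weeks and lie between 6.18% and 12.5% at 40 weeks.

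The number of Pyy molecules in a cell followed the same order at 40 weeks. Pomc made up a median of 7.58% of the UMIs in the 5144 melanotroph-gated cells with no Pyy, 6.52% in the 1027 cells with 1 UMI, 5.41% in the 299 cells with 2 and 3.74% in the 133 cells with 5 or more. The cells with 1 UMI and with 2 lie on either side of the limit used next to part the library.

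Cells with at least 2 Pyy UMIs were set against cells with 0 within the melanotroph-gated cells of p25OE at 40 weeks. The 629 Pyy-holding cells had a median of 7675 UMIs and the 5144 Pyy-free cells 6686, so depth was alike but not equal. Of 13450 genes with at least 50 UMIs in both sets together, 33 (0.245%) were higher and 152 (1.13%) lower in the holding cells with an interval beyond 1.5-fold. Cells are not replicates, so these counts describe 1 library. Ratios are relative to the median gene.

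The 12 highest genes were 2.37-fold to 3.36-fold higher in the holding cells. Hes3, a repressor of the Hes family, had 143 UMIs in 60 holding cells, 21.5 CPM against 5.68 CPM, 3.33-fold higher. Dbx1, a homeobox gene of the developing brain, was 3.36-fold higher on only 27 UMIs, and Mafa, a transcription factor of the pancreatic beta cell, was 2.66-fold higher at 12.9 against 4.28 CPM. Tubb2b, a beta-tubulin of neurons, had the most UMIs of the 12, with 86.6 against 28.1 CPM, 2.71-fold higher. Ddc, the decarboxylase that makes dopamine and serotonin, was 2.37-fold higher (35.02 against 13.03 CPM), and Chodl, a membrane lectin, 2.91-fold higher (37.4 against 11.3 CPM). The other 6 were Krt23 (2.65-fold), Muc1 (2.55-fold), Cib3 (2.52-fold), Nrep (2.49-fold), the potassium channel gene Kcnq3 (2.41-fold) and Henmt1 (2.39-fold). For each of these 12 the ratio without the highest cell of each set was at least 2.32-fold, so no gene of the 12 rests on 1 cell.

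The 12 lowest genes were rare in both sets, and each had between 1 and 4 UMIs in the holding cells. Creb3l1, a transcription factor held in the endoplasmic reticulum, had 3 UMIs against 193 in the free cells, 12.3-fold lower. F3, the gene of tissue factor, was 12.2-fold lower on 2 UMIs against 127, Clip4 11.2-fold lower on 2 against 117 and Cped1 9.86-fold lower on 2 against 103. Dock3, Kif26a, AL732506.1 and the fatty acid receptor gene Ffar4 had 1 UMI each in the holding cells and ratios of 10.3, 9.96, 9.77 and 9.58. AI839979 was 7.47-fold lower. In the free cells, 32 of 86 Cx3cr1 UMIs, 37 of 111 Hspa1b UMIs and 86 of 137 Cartpt UMIs lay in 1 cell each.

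**Figure D3:**
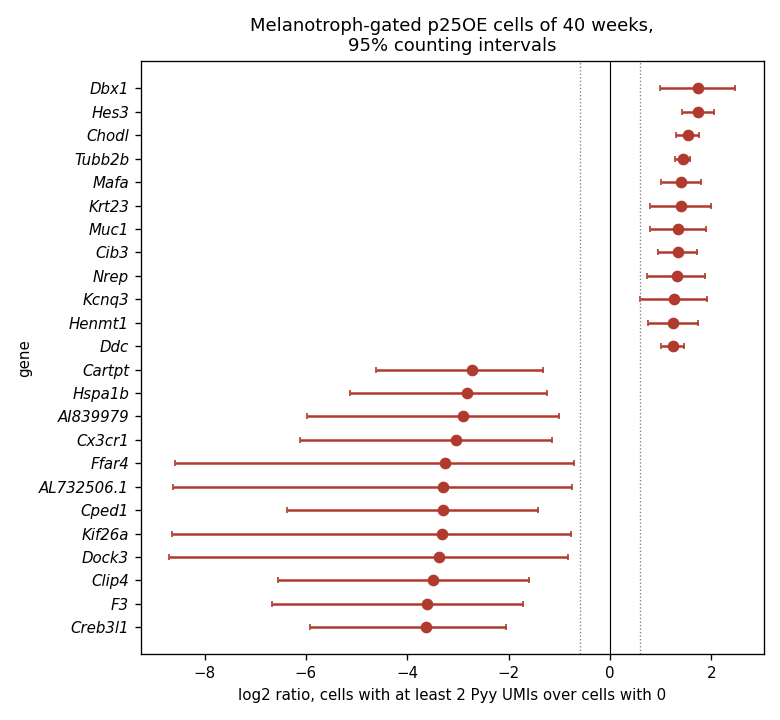
For the 12 highest and the 12 lowest genes (vertical axis), the log2 ratio of cells with at least 2 Pyy UMIs over cells with 0 (horizontal axis) is plotted for melanotroph-gated p25OE cells of 40 weeks, with 95% counting intervals and dotted lines at 1.5-fold. The higher genes lie between 2.37-fold and 3.36-fold with narrow intervals, and the lower ones have wide intervals because they had 1 to 4 UMIs in the holding cells.

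Melanotroph genes were not uniformly lower in the Pyy-holding cells. Pomc stood at 78977 against 146381 CPM, 2.10-fold lower, and Pcsk2 at 2157 against 2786 CPM, 1.47-fold lower. Pax7 was 1.10-fold higher (185 against 148 CPM), and Oacyl was 1.23-fold lower. Pam, the amidating enzyme, was 1.53-fold lower, Scg2 1.33-fold lower and Chga 1.17-fold lower, while the ratio of Chgb was 0.950 (0.926 to 0.975) and that of Pcsk1 was 0.907 (0.783 to 1.05). Mki67, a mark of dividing cells, had a ratio of 1.09 (0.952 to 1.23). At least 2 of 10 mitosis genes were read in 4.46% (2.98 to 6.38) of the thinned holding cells and in 5.25% (4.65 to 5.91) of the thinned free cells, so no difference in cycling was detectable at this depth. Read the other way, Pyy was found in 14 of 358 thinned cells with mitosis genes (3.91%, 2.15 to 6.47) and in 388 of 6300 without (6.16%, 5.58 to 6.78).

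The same division at 14 weeks had only 47 holding cells against 1538 free cells, with median depths of 10989 and 8284.5 UMIs. Of 12212 genes, 112 (0.917%) were higher and 108 (0.884%) lower. Of the 12 highest genes of 40 weeks, 10 lay on the same side of 1 and 5 passed the limit at 14 weeks, and of the 12 lowest, 9 lay on the same side and 1 passed, while only 5 and 6 of them had enough UMIs at that age. Hes3 was 6.63-fold higher (34 UMIs in 15 holding cells), Chodl 8.95-fold (38 UMIs in 18 cells) and Ddc 6.19-fold (29 UMIs in 15 cells). Clip4 was 7.14-fold lower on 2 UMIs against 259. Others among the 12 highest at 14 weeks were Tmprss6, a membrane protease, at 9.53-fold, Serpine2, a protease inhibitor, at 9.18-fold, and Igfbp4, which binds insulin-like growth factors, at 6.07-fold, although the difference between the ages was not tested. Pomc was again lower, with a ratio of 0.411 (0.408 to 0.415). Gal was 11.2-fold higher there, but 280 of its 299 UMIs came from 1 cell, and without the highest cell of each set its ratio was 0.764.

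Across the gland, the pattern of Pyy was most like that of Sp8. Over 29 pairs of class and library, Pearson's r of log2(CPM + 10) was 0.96 with Sp8, a zinc finger transcription factor, 0.94 with the unnamed transcript Gm28523 and 0.94 with Dlx4os, a transcript antisense to Dlx4, among 16211 genes searched. The pairs share libraries and the high points are few, so r is a description. In melanotroph-gated cells Sp8 had 30, 305, 6 and 3988 UMIs, and unlike Pyy it was read in WT. Some of the genes that go with Pyy inside p25OE cells were also more often read in p25OE than in WT: in the same order Hes3 had 6, 152, 5 and 455 UMIs, Chodl 6, 130, 2 and 870, and Ddc 23, 139, 8 and 924. These and the Sp8 values are raw counts, and the gate held 11321804, 17353592, 4288410 and 55849954 UMIs in all. The difference per UMI at 40 weeks is therefore much smaller than the raw counts make it look. Mafa, with 106, 310, 12 and 297 UMIs, had log2 ratios of p25OE over WT of 0.75 at 14 weeks and 0.54 at 40 weeks.

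Npy, which encodes neuropeptide Y, the closest relative of peptide YY in the list, was almost unread. The kept cells held 6, 0, 1 and 10 Npy UMIs. All 10 of the last library lay in 10 different melanotroph-gated cells, 0.179 CPM (0.0859 to 0.329), and with 0 UMIs in the WT cells of that gate and so small a count no ratio is given.

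Gal, which encodes galanin, a peptide that is known from lactotrophs, was read in every library, with 26644, 9929, 19884 and 14201 UMIs. Lactotroph-gated cells stood at 358 (352 to 364), 302 (294 to 310), 570 (557 to 582) and 192 (160 to 229) CPM. In these cells 1562 of 2065, 549 of 1064, 1370 of 1933 and 30 of 52 held a UMI. The lowest value is that of p25OE at 40 weeks, where the gate held 126 Gal UMIs in all. Ungated cells stood at 881, 303, 868 and 62.7 CPM, above the lactotroph-gated cells in both WT libraries. Macrophage-gated cells, taken as background, had 20.8, 15.4, 180 and 49.5 CPM, and that level was highest in WT at 40 weeks.

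In melanotroph-gated cells the Gal levels were 68.6 (63.9 to 73.6), 69.7 (65.9 to 73.8), 186 (174 to 200) and 248 (243 to 252) CPM. The value of WT at 40 weeks lies at the macrophage background of that library, and the other 3 lie above theirs. After thinning, 5.35%, 3.10%, 17.8% and 8.31% of the melanotroph-gated cells held a Gal UMI, against 2.36%, 1.63%, 15.9% and 4.73% of the macrophage-gated cells. The ratio of p25OE over WT was 0.893 (0.816 to 0.979) at 14 weeks and 1.02 (0.950 to 1.10) at 40 weeks, within 1.5-fold at both ages. Without the scaling to the median gene the later log2 ratio was 0.41, and with the gate applied without Pomc it was -0.96, a gate that adds 1 WT cell with 790 Gal UMIs and 132 Pomc UMIs of 14402.

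Behind similar means, Gal was distributed unevenly in p25OE at 40 weeks. Its 13831 UMIs lay in 2623 melanotroph-gated cells, but 10 of these held 37.2% of them, and the highest held 1659, which is 10.5% of that cell's UMIs. In the following 3 cells Gal gave 647, 587 and 516 UMIs. These 4 cells held between 220 and 1081 Pomc UMIs, between 49 and 86 Pcsk2 UMIs, and no Pyy. At 14 weeks in p25OE the highest cell held 407 Gal UMIs and the 10 highest held 69.4% of the total, in a gate with fewer cells.

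At 40 weeks in p25OE the level of Gal was lower in Pyy-holding cells, although Gal was read in 293 of 629 of them and in 1871 of 5144 Pyy-free cells before thinning. In Pyy-holding cells Gal stood at 104 CPM and in Pyy-free cells at 295 CPM, 3.24-fold lower (2.998 to 3.50), and without the highest cell of each set the ratio was 0.313. The next highest cells were kept in that ratio, and the 4 cells with the most Gal, named above, are all Pyy-free. After thinning, 24 of 402 Pyy-positive cells also held Gal (5.97%, 3.86 to 8.75), against 529 of 6256 Pyy-negative cells (8.46%, 7.78 to 9.17), and these intervals overlap. The cells with at least 10 Gal UMIs were compared with those without Gal, a division chosen after the values were seen. The 130 Gal-rich cells had a median of 13825 UMIs and the 4177 Gal-free cells 5965, a difference in depth whose part in the following ratios was not tested. Of 12761 genes, 189 (1.48%) were higher and 100 (0.784%) lower in the Gal-rich cells.

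Among genes of peptide processing and granule cargo, in the Gal-rich cells Pam was 3.15-fold higher (2.92 to 3.41), Chgb 2.25-fold, Pcsk2 2.01-fold, Cpe 1.74-fold, Chga 1.73-fold and Scg2 1.51-fold, and the ratio of Pcsk1 was 1.43 (1.10 to 1.82). Oacyl, a gate marker, was 1.98-fold higher. Nupr1, a stress-response gene, was 12.2-fold higher, and 8.64-fold without the highest cell of each set. Col27a1, a collagen gene, was 10.7-fold higher, Rbp4, which carries retinol, 8.33-fold, Cav1, the gene of caveolin, 7.34-fold, and Crisp1 5.82-fold. Creb3l1, among the lowest genes of the Pyy-holding cells, was 5.21-fold higher here, and Hes3, among their highest, was 5.78-fold lower on 3 UMIs. Pyy itself was 3.44-fold lower (2.43 to 5.05). For Cartpt, which encodes the CART peptide, 86 of 97 UMIs lay in 1 Gal-rich cell, and its ratio moved from 48.9 to 5.93 without the highest cells.

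The genes most like Gal over the 29 pairs were Tspan13 (r 0.81), Ssr2 (0.80), part of the translocon-associated complex of the endoplasmic reticulum, and Asic2 (0.76).

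Vip, which encodes vasoactive intestinal peptide, had 973, 210, 334 and 20 UMIs, and most lay in ungated cells: 614, 178, 198 and 5. These stood at 71.2 (65.6 to 77.0), 20.5 (17.6 to 23.7), 25.9 (22.4 to 29.7) and 2.15 (0.697 to 5.01) CPM. Cells with at least 3 Vip UMIs numbered 89, 19 and 34 in the first 3 libraries. They were rich in Gal, with 2232 CPM against 233 CPM in cells without Vip in WT at 14 weeks, 2844 against 130.0 CPM in p25OE at 14 weeks and 1850 against 375 CPM in WT at 40 weeks. Gal was read in 77 of the 89, 14 of the 19 and 32 of the 34 cells, whose median depth (18449, 11378 and 8629 UMIs) was above the median of the kept cells. Thinned to equal depth, 26 of 216 ungated cells with Gal also held Vip in WT at 14 weeks (12.04%, 8.02 to 17.1), against 6 of 769 without Gal (0.780%, 0.287 to 1.69). At 40 weeks in WT the shares were 4.76% (20 of 420) and 0.371% (4 of 1078), so Vip and Gal were read in the same ungated cells at both ages.

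In melanotroph-gated cells Vip had 18, 4, 50 and 15 UMIs, at 1.59, 0.231, 11.7 and 0.269 CPM. The ratio was 7.84-fold lower (2.58 to 31.9) in p25OE at 14 weeks and 56.6-fold lower (31.2 to 108) at 40 weeks. Macrophage-gated cells had 0.425, 0, 3.55 and 0 CPM, so background moved the same way, and its part was not tested. Of the 18 UMIs in WT at 14 weeks, 11 came from 1 cell.

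Adm, which encodes adrenomedullin, a vasodilator peptide, had 77, 95, 26 and 265 UMIs. In WT at 14 weeks 27 of them lay in 13 of 17 pituicyte-gated cells, the glia of the posterior lobe, at 227 CPM, and 8 lay in 49 fibroblast- or mural-gated cells, at 41.9 CPM. Both classes are under the limit of 50 cells and are given as counts only. Endothelial-gated cells of p25OE at 14 weeks had 31.2 CPM from 6 UMIs. Melanotroph-gated cells had 3, 15, 2 and 202 UMIs, at 0.265, 0.864, 0.466 and 3.62 (3.13 to 4.15) CPM. The level of p25OE at 40 weeks is thus the highest of the 4, 5.95-fold above WT (1.63 to 49.5), and the width of that interval comes from the 2 WT UMIs. At 14 weeks the 18 UMIs of both libraries together were too few for a ratio. Ungated cells of p25OE at 40 weeks had 55 Adm UMIs in 27 of 524 cells, 23.6 CPM (17.8 to 30.7), above the melanotroph-gated level. Macrophage-gated cells there had 7.98 CPM from 5 UMIs, and free RNA was not tested as a source of the melanotroph-gated counts.

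Cells with at least 2 Adm UMIs were set against those without Adm in the same p25OE library, again a division chosen after the values were seen. The 32 cells had a median of 12680 UMIs, against 6887 in 6655 cells. Of 13720 genes, 146 (1.06%) were higher and 90 (0.656%) lower. Among the 12 highest, Vegfa, the main growth factor of blood vessels, was 11.6-fold higher (24 UMIs in 13 cells), the glycolytic genes Hk2 and Pfkfb3 13.2-fold (31 UMIs in 15 cells) and 11.1-fold (10 UMIs in 6 cells), and Ak4, an adenylate kinase, 14.8-fold (10 UMIs in 7 cells). Trib3, a stress-response gene, was 16.7-fold higher, Ccnd2, the gene of cyclin D2, 13.5-fold, and Adm2, a relative of Adm, 12.1-fold. Without the highest cell of each set the ratio was at least 6.83 for Trib3, Ak4, Ccnd2, Hk2, Adm2, Vegfa and Pfkfb3, and it was 2.32 for Cox8b, of whose 9 UMIs 8 lay in 1 cell. Both other peptides had a lower level in these cells, Pyy 5.95-fold (2.32 to 21.8) on 4 UMIs and Gal 4.51-fold (2.98 to 7.20) on 22 UMIs. Gal was nonetheless read in 14 of the 32 cells and in 2545 of the 6655 Adm-free cells, before thinning and at unequal depth. The highest Adm-free cell held 1659 Gal UMIs, and without the highest cell of each set the Gal ratio was 0.196. That ratio compares levels, and whether the 2 genes avoid the same cells was not tested. Adm in turn had 6 UMIs in the Pyy-holding cells and 163 in the Pyy-free cells, 5.20-fold lower (2.34 to 14.4). The divisions by Pyy, Gal and Adm share the cells of 1 library and are not independent.

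The genes most like Adm over the 29 pairs were the unnamed transcript Gm47400 (r 0.93) and the endothelial genes Ushbp1 (0.92) and Scarf1 (0.91).

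Cck, which encodes cholecystokinin, lay mostly in a few cells. The libraries held 515, 189, 763 and 55 UMIs, and the 10 highest cells held 98.6%, 94.7%, 69.7% and 94.5% of them. In WT at 14 weeks 2 thyrotroph-gated cells held 399 UMIs, 263 and 136, and in WT at 40 weeks 4 of 75 thyrotroph-gated cells held 283. The top cell of p25OE at 14 weeks was ungated and held 126, and that of p25OE at 40 weeks was ungated and held 43. Elsewhere in WT at 40 weeks Cck was near 4.7 CPM in lactotroph-, corticotroph- and stem-gated cells alike (4.67, 4.73 and 4.75 CPM), and at 4.90 CPM in melanotroph-gated cells, against 3.55 CPM in macrophage-gated cells. The melanotroph-gated level was 4.94-fold lower (1.86 to 15.3) in p25OE at 14 weeks, where all 17 WT UMIs came from 1 cell, and 35.6-fold lower (16.1 to 84.7) at 40 weeks, on 10 UMIs against 21. The part of free RNA was not tested. AC154509.1 (r 0.92), Spink4 (0.88) and the LIM homeobox gene Lhx2 (0.85) were most like Cck.

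Oxt and Avp encode oxytocin and vasopressin, which neurons of the hypothalamus make and carry in their axons to the posterior lobe. The kept cells held 565, 2152, 534 and 35 Oxt UMIs, 6.15, 30.6, 10.7 and 0.580 CPM. Of the 2152 in p25OE at 14 weeks, 601 and 497 lay in 2 ungated barcodes with 2319 and 2083 UMIs in all and only 532 and 528 detected genes. Barcodes that were left out had far more Oxt, 299 (280 to 318), 167 (157 to 177), 73.1 (64.8 to 82.1) and 3.30 (0.0836 to 18.41) CPM. The barcodes left out held 63.6%, 34.7%, 34.6% and 2.78% of each library's Oxt UMIs, more than the kept cells in WT at 14 weeks only. Avp had 38, 209, 93 and 59 UMIs in kept cells, 0.413, 2.97, 1.87 and 0.977 CPM, and 11.2, 55.8, 12.2 and 214.7 CPM in the barcodes left out.

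In melanotroph-gated cells Oxt stood at 3.09, 12.04, 8.39 and 0.573 CPM and Avp at 0.0883, 3.23, 0.933 and 1.02 CPM. Macrophage-gated cells had 29.7, 22.0, 18.8 and 0 CPM of Oxt and 1.27, 4.77, 3.04 and 0 CPM of Avp, so in the first 3 libraries the melanotroph-gated levels lie under that background. Oxt was 3.42-fold higher (2.39 to 5.05) in p25OE at 14 weeks and 19.1-fold lower (11.5 to 31.7) at 40 weeks. At 14 weeks 1 melanotroph-gated p25OE cell held 75 of the gate's 209 Oxt UMIs. Avp had 1 WT UMI at 14 weeks, a ratio of 32.1 (5.53 to 1291), and a ratio of 0.840 (0.311 to 3.19) at 40 weeks. The genes most like Oxt and Avp reached r of 0.74 (Ccdc117) and 0.79 (Steap4).

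Crhbp encodes the binding protein of corticotropin-releasing hormone, which holds the hormone away from its receptor. It was a gene of lactotroph-gated cells in the libraries that had many of them, with 56983, 14796, 13367 and 122 UMIs in kept cells, of which 94.9%, 91.6%, 75.9% and 65.6% lay in that gate. The levels there were 1483 (1471 to 1496), 762 (749 to 775), 741 (726 to 755) and 122 (96.8 to 152) CPM, in 1752 of 2065, 560 of 1064, 1276 of 1933 and 24 of 52 cells. WT at 14 weeks stands highest, and the following 2 lie close together. In p25OE the level was 1.89-fold lower (1.85 to 1.92) than in WT at 14 weeks and 5.72-fold lower (4.59 to 7.22) at 40 weeks, where the gate rests on 52 cells. Over all genes of that gate 6.15% were at least 1.5-fold lower at 14 weeks and 20% at 40 weeks.

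At 14 weeks Crhbp was read in fewer of the lactotroph-gated cells of p25OE. After thinning, 54.2% (52.0 to 56.3) of the WT cells and 24.2% (21.7 to 26.9) of the p25OE cells held it. The 10 highest cells held 4.30% and 20.7% of the UMIs, in p25OE out of fewer cells. Gal and Crhbp were read together in different proportions. Among thinned lactotroph-gated cells, Crhbp was found in 51.4% of those with Gal and 55.1% of those without in WT at 14 weeks, in 37.7% and 21.7% in p25OE at 14 weeks, and in 41.3% and 28.3% in WT at 40 weeks. Intervals of the last 2 pairs do not overlap (30.4 to 45.5 against 19.1 to 24.6, and 37.5 to 45.1 against 25.8 to 30.8).

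Melanotroph-gated cells had 18.2, 8.53, 55.5 and 0.322 CPM of Crhbp, below the 39.5, 22.8 and 94.3 CPM of macrophage-gated cells in the first 3 libraries, and p25OE at 40 weeks had 0 UMIs in that class. The melanotroph-gated ratios, 2.43-fold lower (1.95 to 3.02) at 14 weeks and 224-fold lower (139 to 385) at 40 weeks, stand beside macrophage-gated levels that are also lower in p25OE at both ages, and the part of free RNA was not tested. Ungated cells had more Crhbp than macrophage-gated cells, with 116, 54.8, 143 and 9.44 CPM. Over the 29 pairs, Reln (r 0.94), the gene of reelin, Rxfp1 (0.93), the relaxin receptor, and 4933406B17Rik (0.92) were most like Crhbp.

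**Figure D4:**
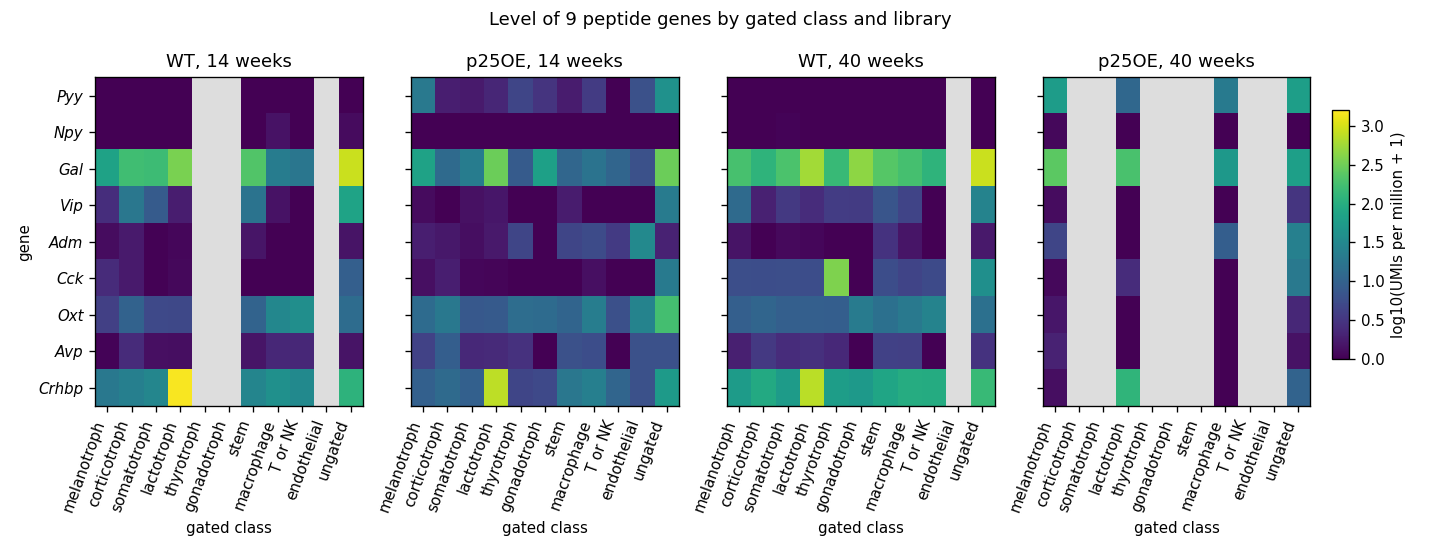
Each panel is 1 library, with the 9 genes as rows, gated classes as columns and colour giving log10(CPM + 1). Grey marks classes with under 50 cells or without enough marker support. Pyy is dark in both WT panels, Crhbp is brightest in lactotroph-gated cells, at 1483 CPM in WT at 14 weeks, and Gal reaches 881 CPM in the ungated cells of that library.

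For the members as a group, melanotroph-gated cells allowed a ratio for 7 genes at 14 weeks and 8 at 40 weeks, those with at least 20 UMIs in both libraries of the age. At 14 weeks 3 were at least 1.5-fold higher in p25OE (Pyy, Oxt and Avp) and 3 lower (Vip, Cck and Crhbp), where 17.9% of all 14616 genes were higher and 9.73% lower. At 40 weeks 2 were higher (Pyy and Adm) and 4 lower (Vip, Cck, Oxt and Crhbp), where 20.2% and 20.3% of 15523 genes were. The members were chosen with these contrasts known.

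**Figure D5:**
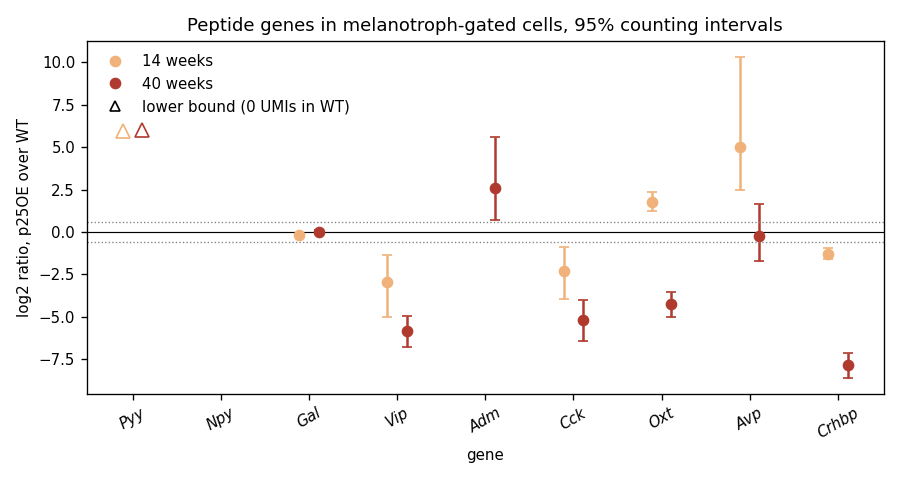
The log2 ratio of p25OE over WT in melanotroph-gated cells (vertical axis) is plotted for each gene (horizontal axis) at both ages. The plot has 95% counting intervals and dotted lines at 1.5-fold. Open triangles mark ratios in which a WT count of 0 was replaced, and they are not interval limits. Genes with under 20 UMIs in both libraries together have no point. Pyy stands at 5.94 and 5.99 with that replacement, Gal lies near 0 at both ages, and Crhbp reaches -7.81 at 40 weeks.

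Receptors of these peptides were sparse in melanotroph-gated cells. Of 23 receptor genes, 7 had enough UMIs at 14 weeks, with 3 higher and 1 lower by 1.5-fold and a median log2 ratio of -0.22, and 8 at 40 weeks, with 1 higher and 5 lower and a median of -0.81. Over all genes the shares higher and lower were 17.9% and 9.73% at 14 weeks (median 0.04) and 20.2% and 20.3% at 40 weeks (median 0.01). Galr3, a galanin receptor, had 31, 92, 9 and 490 UMIs and was 1.70-fold higher (1.12 to 2.65) at 14 weeks and 3.21-fold higher (1.68 to 7.06) at 40 weeks. Adcyap1r1, which binds PACAP and, more weakly, vasoactive intestinal peptide, was 6.12-fold higher (1.91 to 31.2) at 14 weeks on 32 UMIs against 3, and at 40 weeks its ratio was 0.648 (0.203 to 3.30) on 33 against 3. Oxtr, the oxytocin receptor, was 3.25-fold lower (2.03 to 5.29) at 14 weeks and 1.99-fold lower (1.03 to 3.54) at 40 weeks. Crhr1, the receptor of corticotropin-releasing hormone, was 18.41-fold lower (12.1 to 28.0) at 40 weeks, from 11.9 to 0.842 CPM, while at 14 weeks its ratio was 0.736 (0.529 to 1.03). Corticotroph-gated cells, where Crhr1 is a marker, had 107, 118 and 81.4 CPM in the first 3 libraries, and that gate is not named in p25OE at 40 weeks. Ramp1 and Ramp2, which build adrenomedullin and CGRP receptors with the product of Calcrl, were 8.67-fold (6.66 to 11.2) and 12.7-fold lower (4.73 to 32.9) at 40 weeks. Ramp2 is an endothelial gene, with 656 CPM in endothelial-gated cells of p25OE at 14 weeks. In WT at 14 weeks Ramp1 stood at 131 CPM in macrophage-gated and 74.8 CPM in stem-gated cells, against 9.19 CPM in melanotroph-gated cells. Crhr1 stood there at 4.25, 5.95 and 5.92 CPM in the same classes. Free RNA was not tested as a source of Ramp1, Ramp2 or Crhr1 in the melanotroph-gated cells.

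Among 15 genes of peptide processing and granule cargo, 14 were measured at each age. At 14 weeks 3 of them were higher in p25OE and 5 lower (median log2 ratio -0.42), and at 40 weeks 0 were higher and 7 lower (median -0.41), beside 17.9% and 9.73% of all genes at 14 weeks and 20.2% and 20.3% at 40 weeks. Pcsk2 had ratios of 0.689 (0.676 to 0.701) and 1.15 (1.12 to 1.18), within 1.5-fold. Pcsk1n, which encodes an inhibitor of the convertase of Pcsk1, was 2.12-fold lower at 14 weeks and 3.05-fold lower at 40 weeks, from 3770 to 1610 CPM. Pam was 2.11-fold lower at 14 weeks, and Scg2, a secretogranin, 2.75-fold lower at 40 weeks. Chga, which encodes chromogranin A, had ratios of 1.60 at 14 weeks and 1.13 at 40 weeks, and Vgf had ratios of 1.93 and 0.986. Chgb was 1.52-fold higher at 14 weeks and lower at 40 weeks, with a ratio of 0.664 (0.645 to 0.684), and the difference between the ages was not tested. Without the scaling to the median gene, all log2 ratios shift by 0.19 at 14 weeks and 0.38 at 40 weeks, and the list's medians become -0.23 and -0.03.

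Of 53 other peptide genes, 12 and 19 were measured, with 5 higher and 3 lower at 14 weeks (median 0.34) and 8 higher and 5 lower at 40 weeks (median 0.31). The shares over all genes were 17.9% higher and 9.73% lower, and 20.2% and 20.3%. Calca and Gnrh1 had 0 WT UMIs at 40 weeks and entered these counts at 3, and Gnrh1, with 24 UMIs in p25OE, is among the 5 lower only through that replacement. Pdyn, which encodes the dynorphin precursor, had 21.1, 108, 14.0 and 134 CPM and was 4.51-fold higher (3.94 to 5.18) at 14 weeks and 7.36-fold higher (5.71 to 9.66) at 40 weeks. Penk, the enkephalin precursor, went the other way, 2.66-fold lower (1.44 to 5.02) and 5.43-fold lower (3.28 to 8.70). Nmb, which encodes neuromedin B, was 2.29-fold lower at 14 weeks and 2.25-fold higher at 40 weeks, and the difference between the ages was not tested. Adm2 had 309 UMIs in p25OE at 40 weeks against 1 in WT, a ratio of 18.2 (3.25 to 722). Nppc, which encodes C-type natriuretic peptide, was 2.65-fold higher (1.58 to 4.68) at 14 weeks. Nucb2, the gene of nesfatin, lay within 1.5-fold at both ages.

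Transcription factors that are known from endocrine cells of the gut and islet, where Pyy is made, were listed as a further group of 14 genes. At 14 weeks 8 were measured, 4 higher and 1 lower (median 0.41), and at 40 weeks 7, with 4 higher and 0 lower (median 0.62). All genes gave 17.9% higher and 9.73% lower at the earlier age, and 20.2% and 20.3% at the later. Isl1 was higher at both ages, 2.67-fold (2.14 to 3.35) and 3.69-fold (2.59 to 5.45), from 8.83 to 26.8 CPM and from 7.23 to 34.8 CPM. Neurog3, the factor that starts endocrine differentiation in gut and pancreas, was 2.87-fold higher (1.48 to 6.08) at 14 weeks on 55 UMIs against 11. Neurod1 was within 1.5-fold at 14 weeks, and at 40 weeks it had 238 UMIs against 1, a ratio of 14.0 (2.49 to 556). Insm1 had ratios of 1.18 and 1.53. Etv1, which had the most UMIs of the list at both ages, had ratios of 0.941 and 0.955, and Sox4 was 1.51-fold lower at 14 weeks and 1.19-fold higher at 40 weeks.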

How the data were processed

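RNA of single cells was captured and barcoded with the 10x Genomics kit for 3' ends (v2), per the labels' protocols. The authors deposited UMI counts per gene and barcode, whole numbers that are not normalized. Cell Ranger 3.0.2 on mm10 is named in the submitters' processing notes, while 3.0.1 stands in the file headers; how barcodes were selected before deposit is not given in the sources used here. The deposited counts were read with Python 3.11.15, numpy 2.4.6, pandas 2.3.3 and scipy 1.17.1, and plotted with matplotlib 3.10.9.

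Barcodes with at least 500 genes and at most 20% mitochondrial UMIs were kept. Per 10000 UMIs, melanotroph-gated cells had at least 100 from Pomc and 8 from Pcsk2, Pax7 and Oacyl; somatotroph- and lactotroph-gated cells at least 2000 from Gh or Prl; thyrotroph- and gonadotroph-gated cells at least 30 from Tshb or Lhb; corticotroph-gated cells at least 500 from Pomc and under 4 from the melanotroph sum. Other classes needed a summed level and at least 3 markers (macrophages 4). Gate levels were chosen after looking at the marker distributions. Cells passing several gates formed a class of their own. A class entered ratios, likeness and figures with at least 50 cells and marker support; smaller classes are named for Adm and Cck only. No doublet caller was run.

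CPM are UMIs of a gene per 1000000 UMIs of the class. Ratios were divided by the median ratio of genes, used at 20 UMIs or more in the pair of libraries and called at 1.5-fold. Divisions of cells used genes with at least 50 UMIs in both sets together. Shares were taken after thinning to 1000 UMIs. A count of 0 was replaced by 3 counts in ratios and in the limits of kept cells. Likeness is Pearson's r of log2(CPM + 10) over pairs with at least 50 cells, among genes of at least 100 UMIs. Intervals are exact Poisson or Clopper-Pearson at 95% and cover counting error only; cells are not replicates, each group has 1 library, and no test was run. The calculations were tested on simulated data.

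The text names the members, from each list the genes with the most UMIs and the most extreme ratios, and the 12 highest and 12 lowest genes of the division by Pyy at 40 weeks with at least 50 UMIs and an interval beyond 1.5-fold, leaving out unnamed models. Of the other divisions only some genes of the same rule are named. Some further genes of the lists, the divisions by Gal and Adm and the cells with at least 3 Vip UMIs were chosen after their values were seen. The members and lists were chosen with earlier results of these data known.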

Additional observations from a re-analysis of the deposited data

Results flagged for a closer look

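The barcodes left out by the limits on genes and mitochondrial UMIs hold counts that no comparison used, and 5 levels there in p25OE lay above the WT level of the same age. Only levels higher in p25OE were flagged. Gal, Oxt and Crhbp at both ages and Adm at 14 weeks were lower there in p25OE than in WT, with intervals that do not overlap. Pyy stood at 5.40 CPM (3.803 to 7.44) at 14 weeks, from 37 UMIs, against 0 of 3305149 UMIs in WT, which allows up to 1.12 CPM. At 40 weeks it stood at 36.3 CPM (18.1 to 65.0), from 11 UMIs, against 0 in WT, which allows up to 0.956 CPM. The level at 14 weeks is lower than that of the kept p25OE cells, 10.4 CPM, while the interval at 40 weeks includes the kept level of 56.9 CPM. Cck stood at 4.23 CPM (2.83 to 6.08) at 14 weeks, against 0.303 CPM (0.00766 to 1.69) in WT. Avp stood at 55.8 CPM (50.3 to 61.6) against 11.2 CPM (7.88 to 15.4) at 14 weeks, and at 214.7 CPM (165.7 to 273.7) against 12.2 CPM (8.95 to 16.2) at 40 weeks. For Avp the barcodes left out exceed the kept cells in all 4 libraries.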

How the results depend on the processing

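No paired analysis was possible because each group has 1 library, and for the same reason no replicate could be left out. Of the alternatives to the leading results 60 stayed within the main value's counting error or within 1.5 times a count, and 20 moved. Among alternatives to the other results 252 stayed, 74 moved and 2 reversed. The log2 ratio of Pyy, with 3 counts in place of the WT 0, was 5.94 at 14 weeks and 5.99 at 40 weeks. It became 6.13 and 6.37 without scaling to the median gene, 5.06 and 5.77 with the mean of per-cell CPM, and 5.44 and 5.45 with a stricter gate. Without cells that hold mitosis genes it was 5.53 and 6.04, at 14 weeks 6.63 with the gate without Pomc, and at 40 weeks 5.87 with at least 1000 genes. The stricter gate gave Pyy levels of 13.9 and 51.5 CPM. The share of melanotroph-gated cells with Pyy was 7.41% and 24.4% without thinning and 2.95% and 9.93% after thinning to 2000 UMIs, and at 14 weeks 2.95% with the gate without Pomc. With at least 1 Pyy UMI, 9 genes were higher and 50 lower in the holding cells, in place of 33 and 152, and in the 14-week library 112 were higher. Of the 12 highest and 12 lowest genes, 4 and 3 passed the limit with at least 1 Pyy UMI. Without cells that hold mitosis genes 7 and 7 passed, and in both settings every gene stayed on the same side of 1. With cells weighted to equal depth, 49 were higher and 228 lower. The Cck log2 ratio at 14 weeks, -2.30, was 0.37 with the stricter gate, and the Gal log2 ratio of Pyy-holding cells, -1.69, was 3.49 in the 14-week library, where 280 of 299 UMIs lay in 1 cell. The cause of the other shifts was not tested. Depth limits Npy, Adm at 14 weeks and most receptors, which had too few UMIs for a ratio.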
